A study of Homo sapiens with 6 samples.

Results

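The collagen chain genes are the genes for the polypeptides that wind around each other into collagens, the main structural proteins of connective tissue and of basement membranes. They were taken by name alone, as every human gene with a symbol made of COL, a number, A and a number, and no measured value entered the choice. There were 44 of them among 38606 human genes in the deposited matrices, and they were studied in human nuclei by group and by cell class. All 44 passed the filter on low counts.

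A collagen molecule is a triple helix of alpha chains that may be copies of one chain or products of different genes. Fibrillar collagens build the banded fibres of skin, tendon, bone and cartilage, network-forming collagens such as type IV build the sheet under epithelia and around vessels, and fibril-associated collagens sit on the surface of fibres. Chains are hydroxylated and folded in the endoplasmic reticulum, exported, trimmed and then cross-linked outside the cell. Fibroblasts and other mesenchymal cells make most fibrillar collagen, while many epithelia, vessels, muscle and glia make basement membrane chains.

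Teratomas are tumours in which pluripotent cells form mixed tissues. H1, an established human embryonic stem cell line, was compared in 3 forms: wild type (WT), a knockout (KO) of the long non-coding RNA LNCPRESS1, and a line called ΔATG (written DATG in the sample titles and here), for which the labels describe no sequence change. Every group was grown with matrigel at the flank of NSG mice, which lack mature lymphocytes, and the tumours still held mouse nuclei of the host. Single nuclei of the frozen tumours gave 2 libraries in each group, in which the 3′ ends of RNA molecules were counted by unique molecular identifier (UMI). The sources used here give neither the age of the mice nor whether the libraries of a group came from separate tumours or clones, and p-values therefore measure only the spread between these samples, which may be technical.

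After filtering, 49204 human nuclei remained, from 5254 to 10932 per library, with 20153055 to 33381537 human UMIs and a median of 2430 to 3846 UMIs per nucleus. LNCPRESS1 itself had 7 and 2 UMIs in WT (replicates 1 and 2), 3 and 0 in KO and 1 and 3 in DATG, where a count of 0 allows up to 3, so the labels could not be checked. Replicates were less alike in DATG (correlation of log2 CPM 0.904) than in WT (0.976) and KO (0.979). DATG replicate 2 also held 3649 barcodes of mixed species, against 513 to 1095 elsewhere. Mitochondrial RNA made up 0.50% and 0.522% of human UMIs in DATG and 0.0780% to 0.173% in the other 4 libraries. Pairs of libraries shared 7 to 33 barcodes. Clustering without any collagen chain gave 30 clusters, of which 22 could be named by markers that hold no collagen, in 18 classes called "-like". The 8 unnamed clusters, 40.3% of nuclei, are called by their leading gene (CDKN2B-led and so on), which makes 26 populations in all.

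The type IV genes lie in head-to-head pairs, so chains that can assemble together are read in opposite directions from the DNA between their starts. The letters between COL4A1 and COL4A2, and the letters just before the starts of COL4A3 and COL4A5, are shown for this reason, from RefSeq on GRCh38.p14. Each is written 5′ to 3′ on the plus strand, and capitals mark the CCAAT box, the GC box with letters GGGCGG and the TATA box with letters TATAAA. Each was searched on both strands, and none of these motifs overlaps another here.
COL4A1 to COL4A2, chr13:110307158-110307283: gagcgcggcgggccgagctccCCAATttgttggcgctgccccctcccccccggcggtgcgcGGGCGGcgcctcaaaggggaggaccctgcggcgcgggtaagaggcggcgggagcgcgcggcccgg
COL4A3, chr2:227164374-227164623: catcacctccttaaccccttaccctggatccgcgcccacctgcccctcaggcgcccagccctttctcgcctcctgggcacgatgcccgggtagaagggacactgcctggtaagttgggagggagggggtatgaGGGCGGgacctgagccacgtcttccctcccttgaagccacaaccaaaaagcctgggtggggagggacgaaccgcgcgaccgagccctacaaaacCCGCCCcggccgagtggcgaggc
COL4A5, chrX:108439588-108439837: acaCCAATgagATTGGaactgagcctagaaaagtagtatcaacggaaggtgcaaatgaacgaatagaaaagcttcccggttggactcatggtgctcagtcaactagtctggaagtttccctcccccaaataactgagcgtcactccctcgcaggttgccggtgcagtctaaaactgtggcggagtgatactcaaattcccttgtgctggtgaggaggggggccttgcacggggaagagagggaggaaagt

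The first stretch is all that lay between the starts of COL4A1 and COL4A2, while 418 bases lay between COL4A4 and COL4A3 and 379 between COL4A6 and COL4A5. It held 1 CCAAT and 1 GGGCGG and was 80.2% G or C. The COL4A3 stretch (66.4% G or C) held GGGCGG 1 time on each strand, and the COL4A5 stretch (51.2%) held CCAAT 1 time on each strand. None of the 3 held TATAAA. Among 35116 promoters of the table, whose median G or C share over the 250 bases before the start is 58%, 32.0% held CCAAT in those bases, 42.6% GGGCGG and 10.7% TATAAA on either strand. In a window as long as the COL4A1 to COL4A2 stretch these shares were 21.1%, 34.6% and 5.87%. The table matched 32 of the 44 chains, with 44 promoters, of which 12 held CCAAT, 24 GGGCGG and 8 TATAAA. A match describes letters and is no evidence of a bound factor.

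Across whole teratomas the chains spanned 0.225 CPM (COL20A1 in DATG replicate 2) to 2905 CPM (COL3A1 in the same library), where CPM is counts per 1000000 human UMIs, here on library sizes scaled by the TMM method. COL6A5 was lowest in 5 of the 6 libraries, at 0.336 to 0.964 CPM. COL1A1, COL1A2 and COL3A1, the chains of type I and type III collagen that form the bulk of most fibres, together held 39.4% and 51.9% of all collagen UMIs in WT, 26.0% and 38.8% in KO, with 51.4% and 51.7% in DATG. These are shares of UMIs counted near the 3′ end and not divided by gene length, so they do not rank the chains by molecules of protein. COL1A2 stood at 992 and 1970.0 CPM in WT, 342 and 887 in KO, with 1655 and 2862 in DATG. Both KO libraries lay below both WT libraries and both DATG libraries, while WT and DATG overlapped. The plot of all chains by library shows the same values for the other chains.

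**Figure D1:**
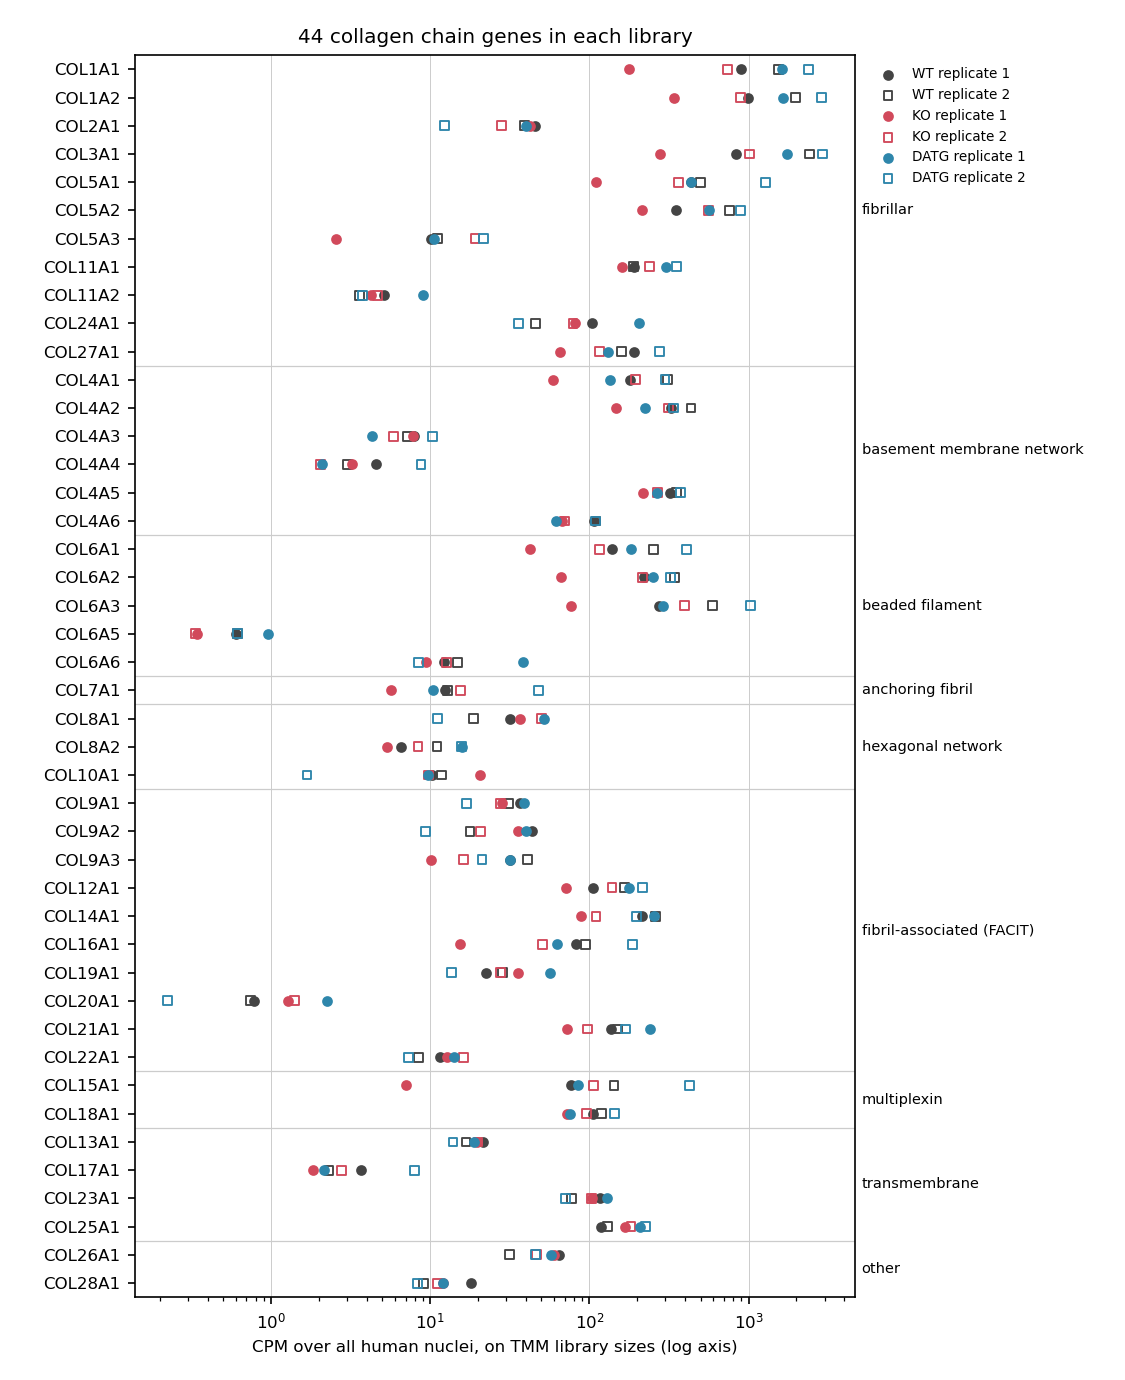
Level of each of the 44 chains in each library, as CPM on a log axis, ordered by protein family; colour gives the group and marker shape the replicate. KO replicate 1 is the lowest point for COL1A1 (177), COL1A2 (342) and COL3A1 (277), and the DATG points differ widely for COL15A1 (85.0 and 424).

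Cell populations differed in both the amount and the kind of collagen RNA. The summed level over the 44 chains was highest in 3 unnamed populations: 24836 ± 8233 collagen UMIs per 1000000 human UMIs in CDKN2B-led nuclei (SD, n = 6 libraries), 23278 ± 8461 in PKHD1L1-led nuclei (n = 5) and 19907 ± 2522 in ADAMTS14-led nuclei (n = 5). None of the fixed marker lists named them, and their identity is not given here. Meninges-like (12788 ± 1899, n = 5), mesenchyme-like (11374 ± 1899, n = 6) and smooth muscle and pericyte-like nuclei (10947 ± 2151, n = 6) followed. Neuron-like nuclei had 2684 ± 1126 (n = 6), near the lowest of the 26 populations. A library counted here when it gave at least 20 nuclei. CPM within a population is on that population's own human UMIs, without TMM. COL1A1, COL1A2 and COL3A1 were the 3 chains with the most UMIs in 18 of the 26 populations. In endothelial-like nuclei COL4A2 and COL4A1 led, in skeletal muscle-like nuclei COL25A1, in pluripotent-like nuclei COL4A5 and in Schwann and neural crest-like nuclei COL5A2. Class levels describe these nuclei and were not tested, since the classes come from the same libraries.

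**Figure D2:**
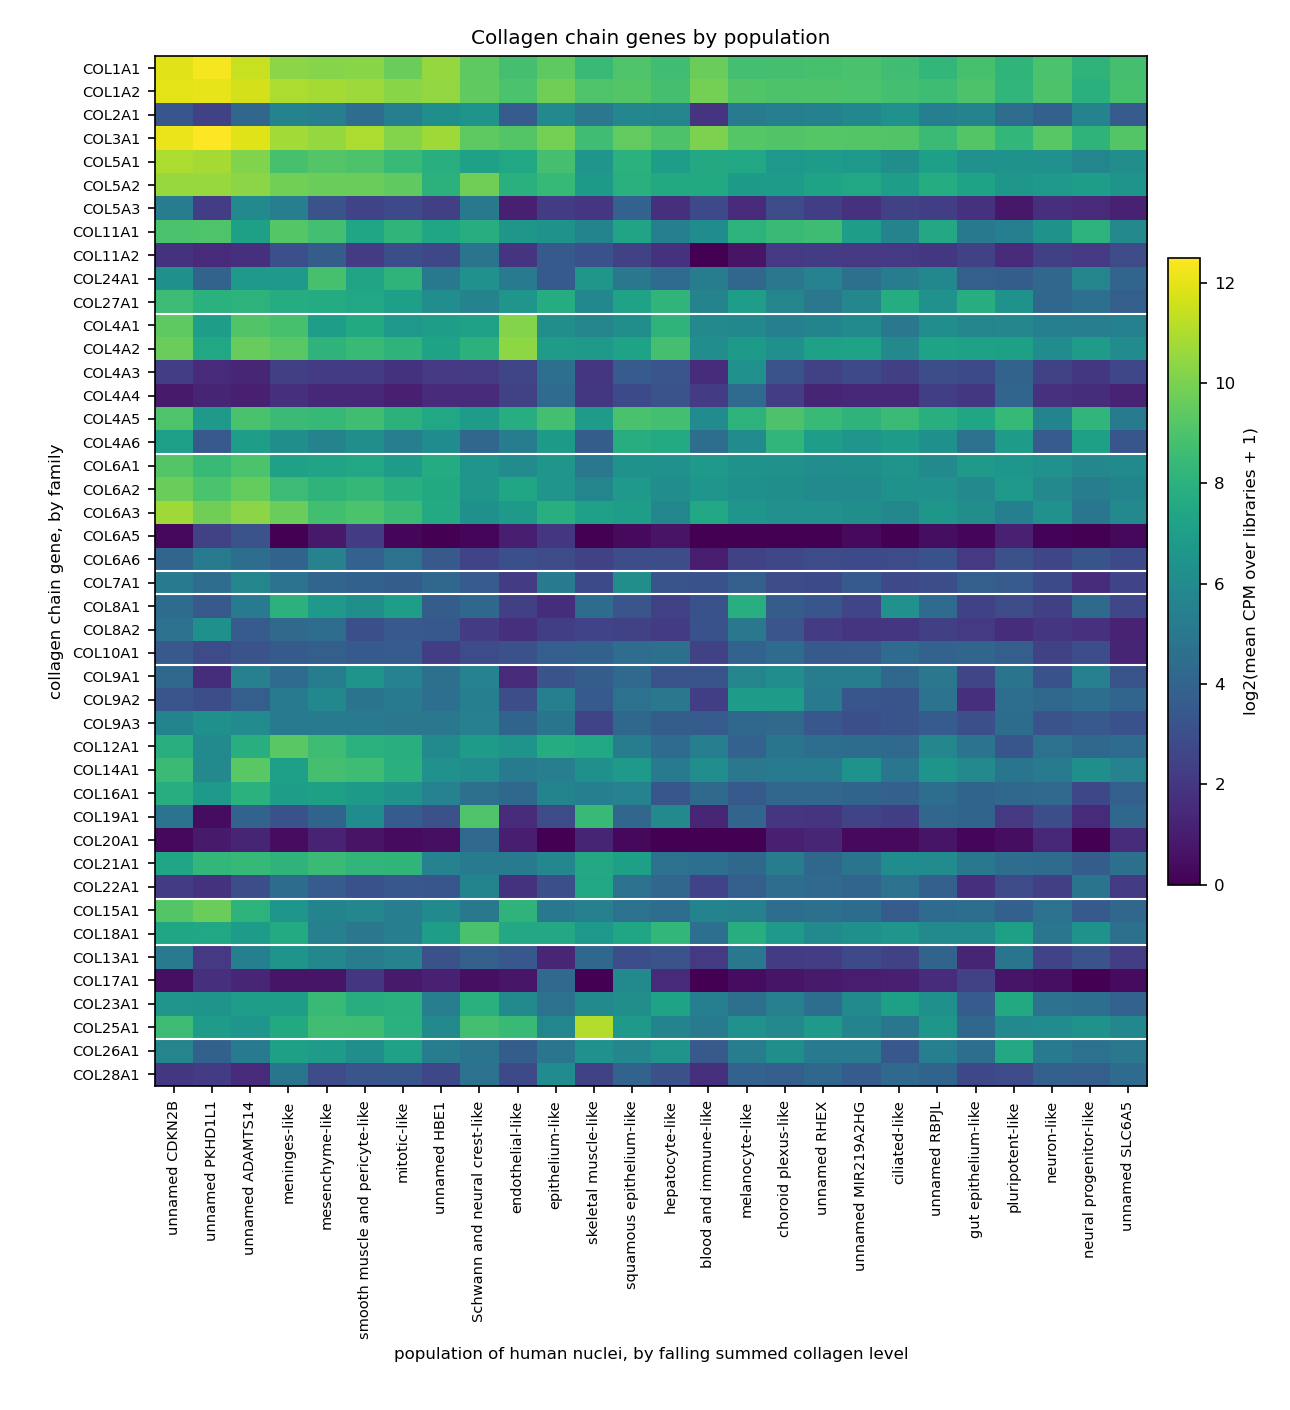
Mean level of each chain in each population, as log2 of mean CPM plus 1, with populations ordered by falling summed collagen level and white lines between protein families. COL25A1 stands out in skeletal muscle-like nuclei (mean 2123 CPM), and COL4A1 (1160) and COL4A2 (1326) in endothelial-like nuclei.

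Among the fibrillar chains, COL1A1 (5068 ± 3178 CPM), COL1A2 (4200 ± 1340) and COL3A1 (5784 ± 3507, SD, n = 5 libraries each) had their highest mean in the PKHD1L1-led population, with CDKN2B-led nuclei next for all 3. The margin was small, since the means in CDKN2B-led nuclei were 3964, 4086 and 4559 CPM and the ranges over libraries overlapped. COL5A1, COL5A2 and COL27A1 were highest in CDKN2B-led nuclei. COL5A1 and COL5A2, the chains of type V collagen that is built into type I fibrils and limits their width, stood there at 1999 ± 345 and 1526 ± 387 CPM (n = 6), against 1788 and 1512 in PKHD1L1-led nuclei.

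Chains of cartilage collagens had their highest means in several populations. COL2A1, the chain of type II collagen, had no cartilage-like population to be highest in, because no cluster was named by the chondrocyte list. It stood at 88.4 ± 37.0 CPM in Schwann and neural crest-like nuclei and at 79.8 in ciliated-like nuclei. COL11A1, a chain of the type XI collagen found within cartilage fibrils and beyond, was highest in meninges-like nuclei (580.3 ± 261 CPM, n = 5), close to 537 in PKHD1L1-led nuclei. COL24A1, another fibrillar chain, was highest in mesenchyme-like nuclei, at 458 ± 165 CPM (n = 6). COL9A1, COL9A2 and COL9A3 form type IX collagen on cartilage fibrils. COL9A1 stood at 88.4 ± 44.5 CPM in smooth muscle and pericyte-like nuclei, against 68.4 ± 27.4 in choroid plexus-like nuclei. COL9A2 was level between melanocyte-like (118 ± 45.6) and choroid plexus-like nuclei (118 ± 94.1). COL9A3 stood at 75.4 ± 35.6 in PKHD1L1-led nuclei, against 64.3 ± 27.1 in ADAMTS14-led nuclei.

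Basement membrane chains split by tissue. COL4A1 and COL4A2, which form the type IV network found in nearly all basement membranes, were highest in endothelial-like nuclei. COL4A1 read 1080.1 and 1651 CPM there in WT, 828 and 1049 in KO, with 938 and 1416 in DATG. COL4A2 read 1265 and 1631 in WT, 1278 and 1099 in KO, with 1263 and 1419.9 in DATG. Both KO values of COL4A1 lay below both WT values and those of COL4A2 did not, and the KO values rest on 25 and 36 nuclei. COL4A3 was highest in melanocyte-like nuclei (79.4 ± 36.4 CPM, n = 5), and its partner COL4A4 in epithelium-like (19.7 ± 18.4, n = 4) and melanocyte-like (19.4) nuclei alike. COL4A6, a chain of epithelial and smooth muscle basement membranes, was highest in choroid plexus-like nuclei (296 ± 55.2 CPM), where its partner COL4A5 stood at 516 ± 76.9 against 532 ± 101 in CDKN2B-led nuclei (n = 6 each). Type XVIII collagen, the source of endostatin, is encoded by COL18A1, which was highest in Schwann and neural crest-like nuclei at 473 ± 93.2 CPM.

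Type VI collagen forms beaded filaments around cells, and its chains other than COL6A6 were highest in unnamed populations too. COL6A1 (573 ± 280 CPM), COL6A2 (835 ± 246) and COL6A3 (1685 ± 451, n = 6 each) were highest in CDKN2B-led nuclei, each with ADAMTS14-led nuclei next. The fibril-associated chains COL14A1 (636 ± 219 CPM, n = 5) and COL16A1 (252 ± 70.5) were highest in ADAMTS14-led nuclei. COL12A1 (637 ± 231 CPM) had its highest mean in meninges-like nuclei, and COL21A1 (364 ± 108, n = 6) in mesenchyme-like nuclei.

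Some chains stood higher in one class by a wide margin. COL25A1, a transmembrane collagen of muscle and of neurons, read 2176, 1603 and 2591 CPM in skeletal muscle-like nuclei of KO replicate 1, KO replicate 2 and DATG replicate 1, the libraries with at least 20 such nuclei. In the other 3 libraries, with 4 to 16 such nuclei, it read 1184 to 4141 CPM. Its mean there, 2123 CPM, was 4.94-fold that of the next population (430.0 in Schwann and neural crest-like nuclei). It was the 1 chain at least 4-fold above every other population at 20 CPM or more. COL22A1, a collagen of muscle and tendon junctions, had 176 ± 59.2 CPM in the same nuclei (n = 3), 3.55-fold above the next. COL20A1 stood at 18.1 ± 10.9 CPM in Schwann and neural crest-like nuclei (n = 6), 8.91-fold above the next population but under 20 CPM. COL19A1 had its highest mean there too, 531 ± 278 CPM (n = 6), but the margin over skeletal muscle-like nuclei (341 ± 429, n = 3) was within the spread between libraries.

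The chains known from skin had their highest means in squamous epithelium-like nuclei, by a clear margin for COL17A1 alone. COL17A1, a hemidesmosome protein that anchors basal keratinocytes, stood at 61.9 ± 19.1 CPM there and at 18.4 in epithelium-like nuclei. COL7A1, which forms the anchoring fibrils below the epidermis, stood at 71.4 ± 65.3 CPM against 51.4 ± 24.3 in ADAMTS14-led nuclei, and its highest value of 200.3 came from DATG replicate 2 with 34 nuclei. Without that library the means of COL7A1 were 45.7 and 45.6 CPM, so the populations could not be ranked for it. Margins were smaller for COL10A1, a chain of growth plate cartilage, at 23.7 ± 15.6 CPM in hepatocyte-like nuclei, and for COL8A1, a chain of vessel and corneal membranes, at 262 ± 84.1 CPM in meninges-like nuclei. COL15A1 (785 ± 244 CPM) and COL8A2 (76.1 ± 27.1) were highest in PKHD1L1-led nuclei and COL5A3 (60.0 ± 34.7) and COL6A5 (8.17 ± 11.2) in ADAMTS14-led nuclei. COL23A1 (346 ± 71.1 CPM) and COL6A6 (46.3 ± 46.0) were highest in mesenchyme-like nuclei, COL13A1 (87.9 ± 25.2) in meninges-like, COL28A1 (67.0 ± 42.7) in epithelium-like and COL11A2 (26.7 ± 15.4) in Schwann and neural crest-like nuclei. With 1 library left out of all populations in turn, a choice made after seeing the data, 12 of the 44 chains changed their highest population at least once: COL1A2, COL4A4, COL4A5, COL5A2, COL6A5, COL6A6, COL8A1, COL9A2, COL10A1, COL11A1, COL16A1 and COL21A1.

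Levels of some chain pairs followed each other across the 26 populations, within a trimer and between trimers. The correlation of log2 levels, which is a description over populations that share libraries and depth, was 0.99 for COL1A1 and COL1A2, 0.96 for COL4A1 and COL4A2, 0.90 for COL4A5 and COL4A6, 0.89 for COL4A3 and COL4A4, and 0.89 for COL6A1 and COL6A2. COL1A1 and COL3A1, which belong to different trimers, gave 0.99 and the highest value of the 12 pairs computed. COL3A1 and COL5A2, which lie next to each other on chromosome 2 and also belong to different trimers, gave 0.86. COL9A1 and COL9A2 gave 0.65, while COL9A3 gave 0.19 with COL9A1 and 0.15 with COL9A2. Across types, COL1A1 gave 0.59 with COL4A1 and 0.15 with COL4A5. Within whole teratomas the ratio of COL1A1 to COL1A2 UMIs was 0.90 and 0.78 in WT, 0.52 and 0.83 in KO, with 0.98 and 0.83 in DATG, so KO replicate 1 held the least COL1A1 for its COL1A2. In GENCODE 29 the models of COL4A1 and COL4A2 overlap at their starts, and the sources used here do not say if strand entered the counting.

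KO and WT teratomas were compared to see which chains differ when LNCPRESS1 is lost. Of the 44 chains, 31 had a lower and 13 a higher fitted level in KO, with a median log2 fold change of -0.38 against 0.011 over all 26321 genes tested. In edgeR's quasi-likelihood fit of all 6 libraries 0 chains passed (Benjamini-Hochberg adjusted p under 0.05), as did 0% of all genes, and 4 chains had an unadjusted p under 0.05 (4.73% of all genes). Both KO libraries lay below both WT libraries for 16 chains (36.4%), against 22.4% of all genes, and above them for 4 chains (9.09%), against 23% of all genes. By family, 0 of 6 basement membrane chains, 0 of 5 beaded filament chains and 4 of 11 fibrillar chains had a positive fold change. So did 3 of 10 fibril-associated, 3 of 4 transmembrane and 2 of 3 hexagonal network chains. The fold change was also positive for COL26A1, and it was negative for COL7A1, COL15A1, COL18A1 and COL28A1. In whole teratomas fewer cells of a type and less RNA per cell cannot be told apart.

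COL14A1, the chain of type XIV collagen that coats type I fibrils, is the 1 chain that fell in KO with the 4 WT and KO libraries alone and by DESeq2, though not in the fit of all 6 libraries. It stood at 213 and 261 CPM in WT, 88.9 and 110.0 in KO, with 255 and 199 in DATG. Both KO libraries lay below the other 4, which overlapped. The log2 fold change was -1.26 (SE 0.25, adjusted p = 0.998) in the fit of 6 libraries and -1.27 (SE 0.22, adjusted p = 0.0331) with the 4 WT and KO libraries alone, where 1.93% of all genes passed. DESeq2 called it too, at -1.24 (adjusted p = 0.0309), with 0.566% of genes called. Without DATG replicate 1 the fit called COL14A1 and COL9A3 (2.3% of genes), and likewise without DATG replicate 2 (2.16%). Variation between replicates, as edgeR's coefficient, was 38.6% over the 6 libraries.

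COL14A1 was also read within populations. In CDKN2B-led nuclei COL14A1 read 489 and 464 CPM in WT, 104 and 154 in KO, with 531 and 419 in DATG, with 45 nuclei in KO replicate 1. In mesenchyme-like nuclei it read 531 and 495 in WT, 399 and 402 in KO, with 549 and 331 in DATG. Both KO values lay below both WT values in both populations, while KO and DATG overlapped in mesenchyme-like nuclei. The ADAMTS14-led population, where COL14A1 was highest, made up 15.7% and 24.9% of WT nuclei, 0.163% and 1.88% of KO nuclei and 2.01% and 3.61% of DATG nuclei. Its part in the whole-teratoma value was not tested.

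The other chains with the smallest p in KO vs WT did not pass. COL9A3 stood at 31.9 and 41.1 CPM in WT, 10.1 and 16.1 in KO (-1.48, SE 0.36), with 31.8 and 21.2 in DATG. COL21A1, a fibril-associated chain, stood at 137 and 149 in WT, 72.2 and 97.0 in KO (-0.76, SE 0.27), with 240.4 and 170 in DATG. COL4A6 stood at 107 and 110.1 in WT, 67.2 and 69.7 in KO (-0.66, SE 0.30), with 61.7 and 109 in DATG, and its partner COL4A5 at 319 and 354, 219 and 269, and 265 and 372. For all 4 of these chains both KO values lay below both WT values.

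On the higher side COL25A1 stood at 118 and 129 CPM in WT, 168 and 183 in KO (0.51, SE 0.20), with 209 and 226 in DATG. The 3 groups did not overlap, and WT was lowest and DATG highest. Its highest class, skeletal muscle-like nuclei, numbered 16 and 4 in WT, 73 and 38 in KO, with 55 and 15 in DATG, and the part of these numbers in the difference was not tested. COL22A1 (11.5 and 8.50 in WT, 12.7 and 16.1 in KO), COL8A1 (31.6 and 18.7, 36.7 and 50.03) and COL20A1 (0.788 and 0.742, 1.27 and 1.40) also had KO above WT. Their log2 fold changes of 0.53, 0.79 and 0.80 had SEs of 0.41, 0.69 and 0.92. Adjusted p was 0.998 for all 8 chains named for this comparison in edgeR's fit of all 6 libraries.

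**Figure D3:**
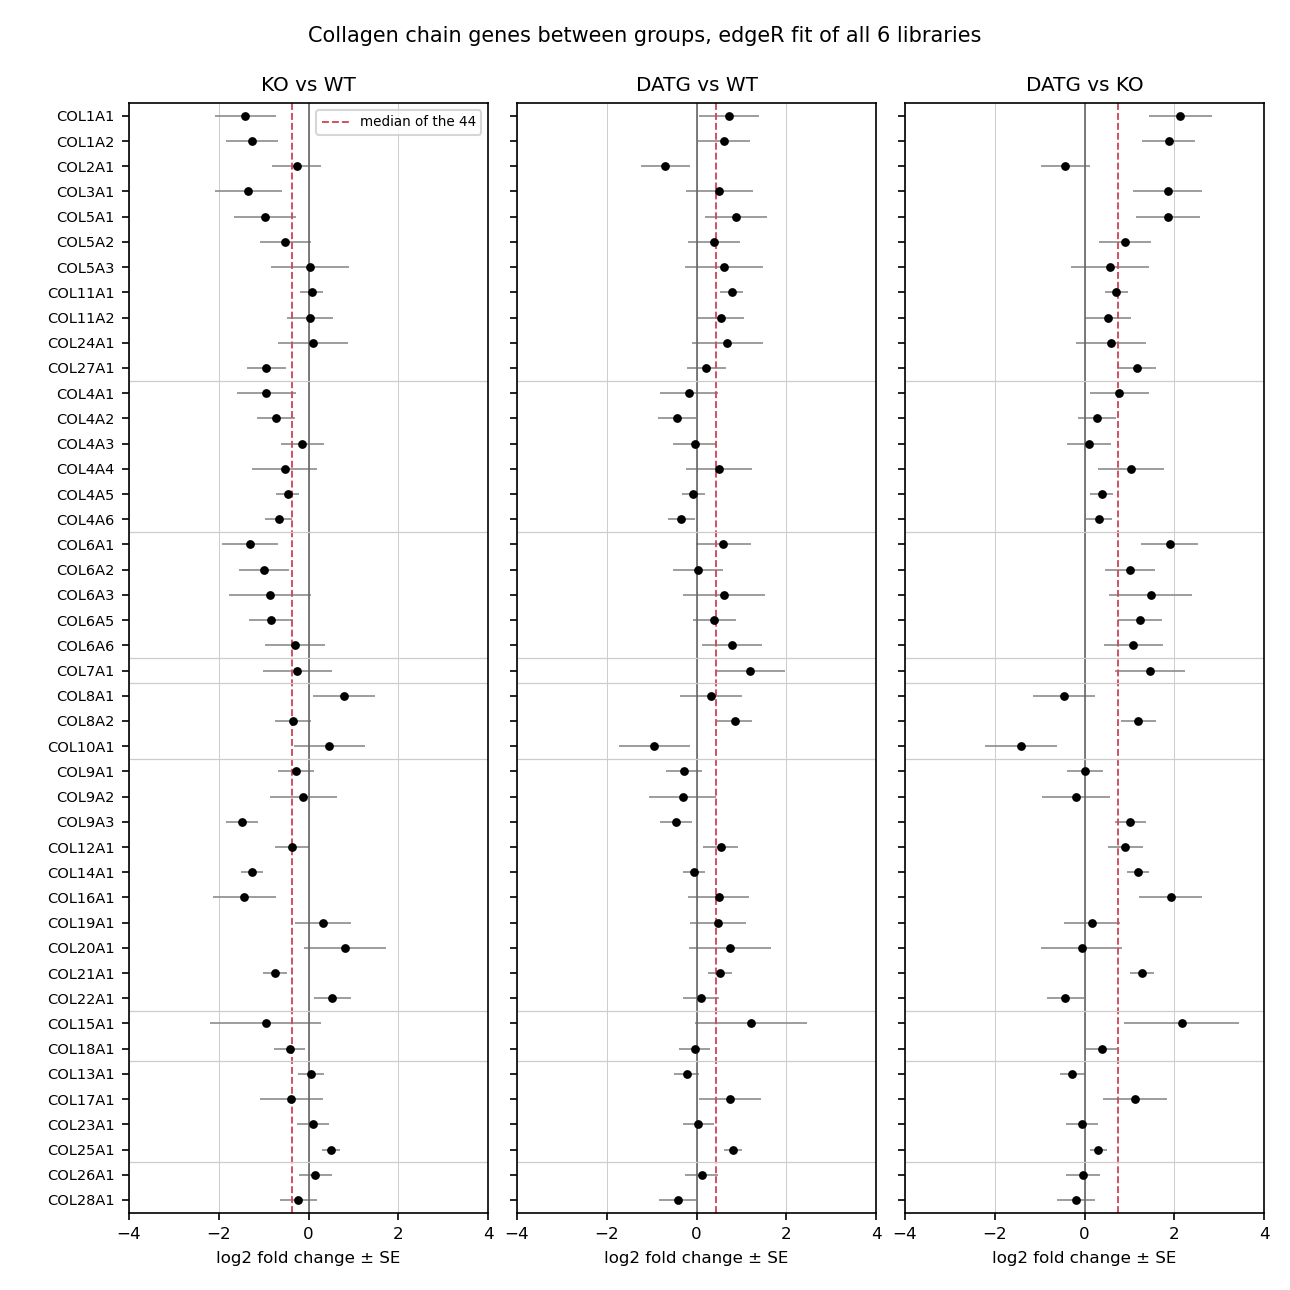
Log2 fold change of each chain with its standard error in the 3 comparisons, from edgeR's fit of all 6 libraries; the dashed line is the median of the 44 chains (-0.38, 0.44 and 0.74). Most points lie left of 0 in KO vs WT (31 of 44) and right of 0 in DATG vs KO (34 of 44), and the KO vs WT and DATG vs KO panels share the KO libraries.

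DATG and WT teratomas were compared in the same way. In DATG 30 chains had a higher and 14 a lower fitted level than in WT, with a median of 0.44 against 0.024 over all genes. EdgeR called 0 chains (0% of genes) and 2 had an unadjusted p under 0.05 (2.85% of genes), while DESeq2 also called 0 chains (0.3% of genes). Both DATG libraries lay above both WT libraries for 6 chains (11.3% of genes) and below them for 2 (11.6% of genes). Without DATG replicate 2 the median was 0.012, and without DATG replicate 1 it was 0.19 and 2 chains, COL10A1 and COL2A1, were called lower (7.8% of genes), the lone DATG library being assumed to vary like the others.

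The chains with the smallest p for higher levels in DATG than in WT were COL25A1 (values above, 0.81, SE 0.20), COL11A1, COL8A2 and COL21A1. COL11A1 stood at 191 and 190.1 CPM in WT, 161 and 238.4 in KO, with 302 and 352 in DATG (0.78, SE 0.26). COL8A2, a chain of the hexagonal lattice of Descemet's membrane, stood at 6.52 and 11.0 in WT, 5.39 and 8.39 in KO, with 15.9 and 15.8 in DATG (0.85, SE 0.39). COL21A1 was at 0.52 (SE 0.27). In each of these 4 chains the DATG values lay above the WT values, and none passed (edgeR adjusted p = 0.999).

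On the lower side in DATG the replicates disagreed. COL10A1 stood at 10.3 and 11.8 CPM in WT, 20.7 and 9.77 in KO, with 9.67 and 1.68 in DATG (-0.94, SE 0.79). COL2A1 stood at 45.5 and 38.9 in WT, 42.3 and 28.1 in KO, with 39.7 and 12.2 in DATG (-0.70, SE 0.55). For both, DATG replicate 2 was far below DATG replicate 1. COL9A3 (-0.46, SE 0.35) and COL4A6 (-0.34, SE 0.30) were the others with the smallest p, and none of the 4 passed (edgeR adjusted p = 0.999).

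DATG and KO were compared last, with the same libraries that each comparison above set against WT. Here 34 chains had a higher and 10 a lower fitted level in DATG, with a median of 0.74 against 0.028 over all genes. EdgeR called 0 chains (0% of genes), 12 had an unadjusted p under 0.05 (5.60% of genes), and DESeq2 called 0 (0.247% of genes). Both DATG libraries lay above both KO libraries for 17 chains (38.6%), against 20.2% of all genes, and below them for 2 (4.55%), against 21.4%. Without DATG replicate 1 edgeR called 11 chains, 6 higher and 5 lower, while 22.9% of all genes were called. Without KO replicate 1 the median was 0.42, and without KO replicate 2 it was 1.12.

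COL14A1 (1.19, SE 0.25), COL21A1 (1.28, SE 0.27), COL1A2 (1.88, SE 0.59) and COL1A1 (2.13, SE 0.70) had the smallest p for higher levels in DATG than in KO. COL1A1 stood at 893 and 1538 CPM in WT, 177 and 739 in KO, with 1629.7 and 2386 in DATG. KO lay below WT and WT below DATG without overlap, and the log2 fold change of COL1A1 was 1.44 without KO replicate 1 and 3.51 without KO replicate 2. Lower in DATG were COL10A1 (-1.41, SE 0.80), COL22A1 (-0.43, SE 0.41), COL13A1 (-0.28, SE 0.28) and COL2A1 (-0.43, SE 0.55). COL13A1, a transmembrane collagen of cell junctions and of the neuromuscular synapse, stood at 21.5 and 16.8 in WT, 19.8 and 19.96 in KO, with 18.9 and 13.9 in DATG. The fold change of COL2A1 turned to 0.19 without DATG replicate 2. EdgeR's adjusted p was 0.695 to 0.793 for these 8 chains.

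The 44 chains were also summed into 1 value per library. Collagen UMIs per 1000000 human UMIs numbered 7292 and 11706 in WT, 3262 and 6673 in KO, with 9732 and 13949 in DATG. KO lay below both other groups without overlap, and WT and DATG overlapped. The log2 ratio of group means was -0.94 for KO vs WT (exact permutation p = 0.333, two-sided), 0.32 for DATG vs WT (exact permutation p = 0.667) and 1.25 for DATG vs KO (exact permutation p = 0.333). With 2 libraries against 2, 0.333 is the smallest p the design allows. With 1 library left out the KO vs WT ratio ran from -1.54 (without KO replicate 2) to -0.51 (without KO replicate 1). DATG vs WT ran from 0.016 (without WT replicate 1) to 0.70 (without WT replicate 2), and DATG vs KO from 0.83 (without KO replicate 1) to 1.86 (without KO replicate 2).

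The collagen UMIs came from different populations in different libraries. The 3 unnamed populations richest in collagen held 40.3% and 66.0% of the collagen UMIs in WT, 3.17% and 36.4% in KO, with 30.4% and 77.4% in DATG. They made up 20.4% and 34.5% of WT nuclei, 0.672% and 9.95% of KO nuclei, with 6.21% and 40.3% of DATG nuclei. ADAMTS14-led nuclei were the main source in WT (27.7% and 38.0% of collagen UMIs). CDKN2B-led nuclei were the main source in DATG replicate 2 (56.7%), while in DATG replicate 1 mesenchyme-like nuclei held 26.6% and CDKN2B-led nuclei 23.9%. In KO replicate 1 mesenchyme-like nuclei held the largest share, 29.01%, and in KO replicate 2 CDKN2B-led nuclei did, with 29.8%. Outside the 3 populations the level was 5196 and 6110.4 collagen UMIs per 1000000 human UMIs in WT, 3182 and 4739 in KO, with 7394 and 5571 in DATG, so KO again lay below both other groups.

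**Figure D4:**
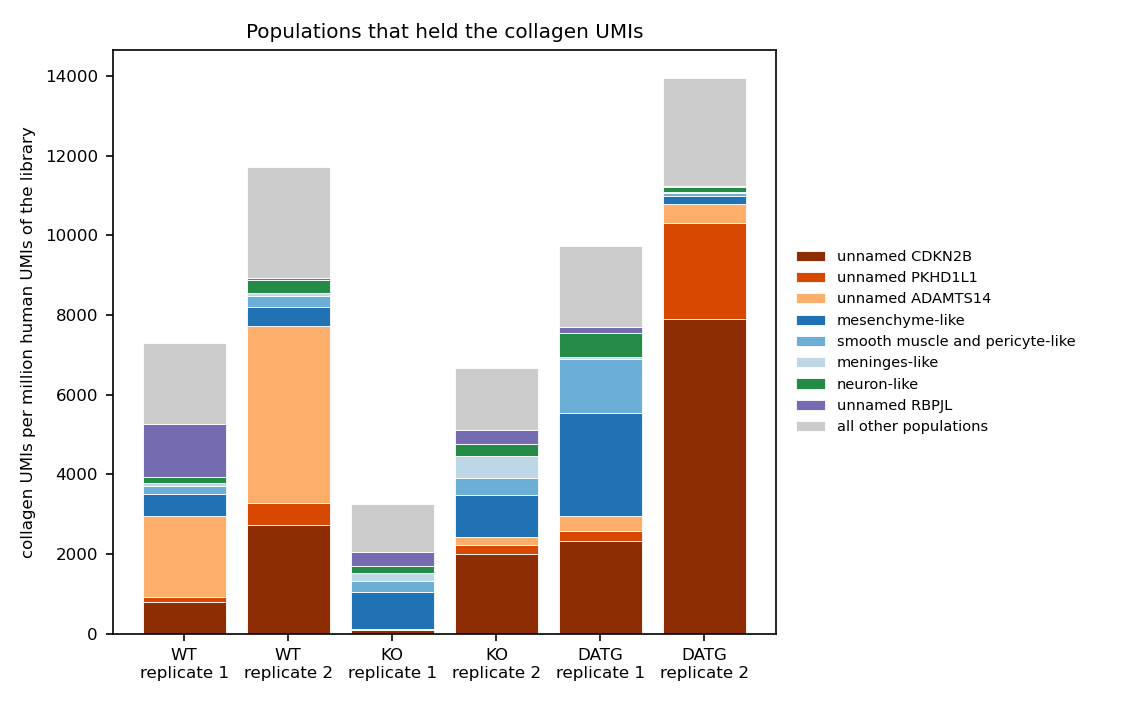
Collagen UMIs per 1000000 human UMIs in each library, stacked by the population of nuclei that held them. The full bars reach 7292 and 11706 in WT, 3262 and 6673 in KO, with 9732 and 13949 in DATG, and the 3 unnamed populations at the base of the bars range from 3.17% of the bar in KO replicate 1 to 77.4% in DATG replicate 2.

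The shares of 13 populations that had at least 20 nuclei in every library were set equal between libraries. ADAMTS14-led and PKHD1L1-led nuclei, with 15 and 2 nuclei in KO replicate 1, were not among them, so differences in their shares were not evened out. With equal shares the sum was 8583 and 10274 in WT, 5351 and 8219 in KO, with 12169 and 10111 in DATG. The KO vs WT ratio was then -0.47, against -0.69 in the same populations with their own shares, and the DATG vs KO ratio was 0.72 against 1.39. DATG vs WT gave 0.24 against 0.71. With equal shares the exact permutation p was 0.333 for KO vs WT, 0.667 for DATG vs WT and 0.333 for DATG vs KO. With their own shares the sums were 6989 and 10308 in WT, 3640 and 7115 in KO, with 10547 and 17689 in DATG. WT and KO then overlapped, and both DATG libraries lay above WT. The exact permutation p was then 0.667 for KO vs WT, 0.333 for DATG vs WT and 0.333 for DATG vs KO.

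The sum was also taken within each population. In 15 of the 18 populations with at least 20 nuclei in every WT and KO library, both KO libraries had a lower sum than both WT libraries. The exceptions were Schwann and neural crest-like, meninges-like and CDKN2B-led nuclei. Both DATG libraries lay above both KO libraries in 13 of 13 populations that could be compared, and above both WT libraries in 3 of 16. In mesenchyme-like nuclei the sum was 12614 and 12754 in WT, 8045 and 10234 in KO, with 12794 and 11804 in DATG. In neuron-like nuclei it was 2714 and 3948 in WT, 998 and 1773 in KO, with 2999.8 and 3669 in DATG. Populations of a library are not independent of each other, since they share its nuclei preparation and its free RNA.

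Human UMIs in nuclei called mouse, which should make no human collagen, were taken as a measure of free RNA. Other sources of these UMIs, such as mouse reads counted as human or barcodes of mixed species, cannot be told apart from free RNA here. Of the human UMIs there, 2.03% and 4.11% were on collagen chains in WT, 0.899% and 2.32% in KO, with 2.89% and 3.32% in DATG (95% exact binomial intervals 1.90% to 2.17%, 3.91% to 4.32%, 0.804% to 1.00%, 2.22% to 2.42%, 2.69% to 3.10% and 3.23% to 3.42%, which cover counting error only). Human nuclei of the same libraries had 0.326% to 1.39%, so collagen made up a larger part of the human UMIs in mouse nuclei than of those in human nuclei. The 6 libraries had the same order in mouse nuclei as in neuron-like nuclei except that WT replicate 1 and KO replicate 2 changed places. COL1A1, COL1A2 and COL3A1 held 64.6% to 77.8% of the collagen UMIs in mouse nuclei and 37.3% to 70.6% in neuron-like nuclei. In mouse nuclei with no UMI of mouse Col1a1, Col1a2 or Col3a1 the collagen share was 0.988% to 4.48%, from 3 to 56 nuclei per library. The part of free RNA in the low levels of neuron-like and other non-mesenchymal nuclei was not tested.

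**Figure D5:**
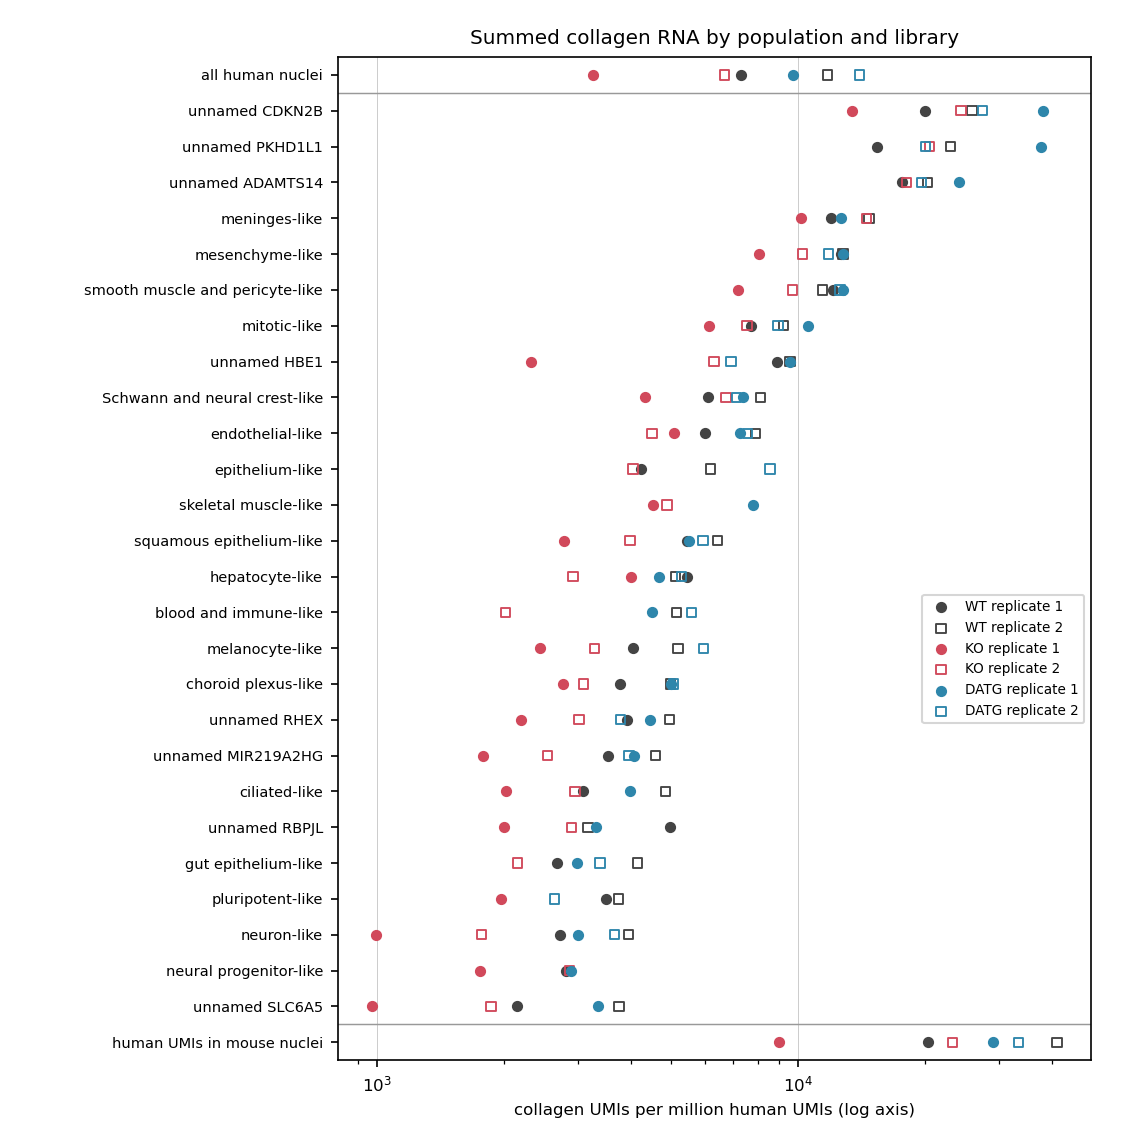
Summed collagen UMIs per 1000000 human UMIs in all human nuclei (top row), in each population with at least 20 nuclei in a library, and among the human UMIs of mouse nuclei (bottom row), on a log axis, 1 point per library. KO replicate 1 and KO replicate 2 lie leftmost in neuron-like nuclei (998 and 1773), and KO replicate 1 is also leftmost in the bottom row, at 0.899% of human UMIs.

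Human UMIs in mouse nuclei were not spread over the chains as those in human nuclei were. COL1A1 reached 6226 CPM among human UMIs in mouse nuclei against 1145 in all human nuclei, and COL3A1 7067 against 1434. COL25A1 read 101 CPM there against 169 in human nuclei, from 38 UMIs, and COL4A5 267 against 296, from 100 UMIs. COL4A4 and COL6A5 had 0 UMIs in mouse nuclei. The mean of COL25A1 in skeletal muscle-like nuclei was 2123 CPM, and the part of free RNA in it was not tested.

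Within the 4 classes with at least 50 nuclei in every library (neuron-, mesenchyme-, choroid plexus- and hepatocyte-like), the chains were tested class by class, so that the number of nuclei of a class no longer enters. EdgeR called 0 chains in all 12 tests, as did DESeq2. Of the genes tested edgeR called 0% in neuron- and choroid plexus-like nuclei and for KO vs WT, 0.0127% (DATG vs WT) and 0.00636% (DATG vs KO) in mesenchyme-like nuclei, and 0.00829% (DATG vs WT) and 0.0249% (DATG vs KO) in hepatocyte-like nuclei. In neuron-like nuclei 34 of the 41 chains tested were lower in KO than in WT, with a median of -0.66 against 0.0016 over all genes, and 14 had an unadjusted p under 0.05 (2.31% of all genes). The medians for KO vs WT were -0.46 in choroid plexus-like nuclei (21 of 33 lower), -0.36 in hepatocyte-like nuclei (20 of 30 lower) and -0.11 in mesenchyme-like nuclei (25 of 40 lower). For DATG vs KO they were 0.57, 0.53, 0.26 and 0.19 in neuron-, choroid plexus-, hepatocyte- and mesenchyme-like nuclei. The collagen share of human UMIs in mouse nuclei moved in the same direction, and the part of free RNA was not tested.

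In mesenchyme-like nuclei COL1A1 had the smallest p for KO vs WT. COL1A1 read 1642 and 1452 CPM there in WT, 504 and 774 in KO, with 1571 and 1233 in DATG. Both KO libraries lay below the other 4, with log2 fold changes of -1.23 (SE 0.28, edgeR adjusted p = 1.00) for KO vs WT and 1.14 (SE 0.28, adjusted p = 1.00) for DATG vs KO. COL11A2, a chain of type XI collagen, went the other way: it read 4.40 and 5.97 in WT, 12.9 and 13.9 in KO, with 22.4 and 12.6 in DATG, with 1.41 (SE 0.48) for KO vs WT and 1.98 (SE 0.49) for DATG vs WT. WT lay below the other 4 libraries. The WT and DATG replicate 2 values of COL11A2 rest on few UMIs, since the class held 1365167 and 1173472 human UMIs in WT and 317095 in DATG replicate 2. COL13A1 read 67.4 and 59.7 in WT and 43.6 and 41.0 in DATG (-0.53, SE 0.29). COL10A1 read 37.3 and 13.9 in KO and 10.5 and 0 in DATG (-1.53, SE 0.64).

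In choroid plexus-like nuclei COL22A1 read 9.77 and 9.61 CPM in WT, 36.3 and 31.7 in KO, with 22.7 and 16.1 in DATG (1.81 for KO vs WT, SE 0.43). COL16A1, a fibril-associated chain, read 16.7 and 15.4 in WT, 3.63 and 3.96 in KO, with 21.8 and 37.5 in DATG (-2.04, SE 0.65). The KO values of COL16A1 rest on few UMIs, since the class held 550337 and 505331 human UMIs in KO. COL5A1 read 87.0 and 101 in WT, 38.2 and 49.5 in KO, with 121 and 202 in DATG (1.93 for DATG vs KO, SE 0.39). Among the human UMIs in mouse nuclei COL16A1 and COL5A1 made up 181 and 1027 CPM over all libraries, and COL22A1 had 3 UMIs. The part of free RNA in the choroid plexus-like levels of these chains was not tested. For each of these 3 chains WT and KO did not overlap, and none passed in edgeR (adjusted p = 1.00, 1.00 and 0.999). For DATG vs WT COL6A1 read 60.9 and 91.3 in WT against 121 and 133 in DATG (0.80, SE 0.31), and COL4A2 129.8 and 86.5 against 57.1 and 57.8 (-0.86, SE 0.30). Without DATG replicate 1 edgeR called 6 chains for DATG vs KO in this class (5.15% of genes), among them COL5A1, and 2 for DATG vs WT (3.38%), and without DATG replicate 2 it called COL24A1 for DATG vs WT (0.612%).

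In neuron-like nuclei COL14A1 read 50.1 and 37.1 CPM in WT, 16.7 and 17.2 in KO, with 49.7 and 28.4 in DATG (-1.31 for KO vs WT, SE 0.32), and COL21A1 26.1 and 13.2, 9.52 and 8.87, and 32.9 and 28.4 (1.77 for DATG vs KO, SE 0.38). Among the human UMIs in mouse nuclei COL14A1 made up 358 and 408 CPM in WT, 168 and 195 in KO, with 228 and 264 in DATG. Human UMIs there are taken as all foreign, while free RNA is only a part of the UMIs of a human nucleus. The levels are therefore on unlike scales, and the part of free RNA in the neuron-like level was not tested. COL11A1 read 63.5 and 73.1 in WT and 96.7 and 115 in DATG (0.69, SE 0.27). COL23A1 read 82.6 and 16.6 in WT and 12.9 and 14.2 in DATG (-1.80, SE 0.71), where WT replicate 1 stood apart. COL19A1 (1.27 for KO vs WT, SE 0.77) and COL4A3 (-1.001 for DATG vs KO, SE 0.54) stood at no more than 11.2 and 6.96 CPM in any library. In hepatocyte-like nuclei COL1A2 read 409 and 681 CPM in WT, 203 and 261 in KO, with 656 and 521 in DATG (-1.18 for KO vs WT, SE 0.35). COL1A2 made up 6469 CPM of the human UMIs in mouse nuclei, and its free RNA in hepatocyte-like nuclei was not tested. COL25A1 in hepatocyte-like nuclei read 40.2 and 34.0 in WT, 53.8 and 117 in KO (1.26, SE 0.53), with 10.3 and 40.6 in DATG (-1.47 against KO, SE 0.59). The class held 195047 human UMIs in DATG replicate 1, so the value of 10.3 rests on few UMIs. For DATG vs WT COL5A2 gave 0.77 (SE 0.42) and COL4A6 -0.62 (SE 0.75), the latter with 279 and 223 CPM in WT and 51.3 and 239.6 in DATG. Without DATG replicate 1, for DATG vs KO, edgeR called 3 chains in neuron-like nuclei (1.8% of genes) and 1 in hepatocyte-like nuclei (0.409%).

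Genes that make, process, bind or degrade collagen were listed by role, 82 in all, of which 80 were tested. In KO vs WT 64 of the 80 had a lower and 16 a higher fitted level, with a median of -0.44, and edgeR called 0. All roles had negative medians: -0.44 for the hydroxylases (13 of 15 lower), -0.62 for folding and export (8 of 9), -0.48 for propeptide removal (7 of 10), -0.33 for cross-linking (6 of 7), -0.15 for receptors (7 of 12), -0.17 for degradation and its inhibitors (9 of 12), and -0.84 for basement membrane partners (14 of 15). With the 4 WT and KO libraries alone 2 genes were called lower, a share near the 1.93% of all genes called in that fit. LAMC3, a laminin chain of basement membranes, stood at 50.4 and 56.7 CPM in WT, 23.9 and 25.3 in KO, with 22.2 and 33.4 in DATG (-1.14, edgeR adjusted p = 0.0367 in the fit of 4 libraries). MEP1A, a gut and kidney protease that can trim procollagen, stood at 9.58 and 9.98 CPM in WT, 0.867 and 1.47 in KO, with 1.99 and 15.9 in DATG (-3.08, adjusted p = 0.0153).

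In DATG vs KO 71 of the 80 pathway genes had a higher fitted level, with a median of 0.61, and edgeR called 0. Without DATG replicate 1 it called 25 of them, 23 higher, in a fit where 22.9% of all genes were called. ADAMTS2, which removes the N-propeptide of fibrillar procollagens, stood at 73.0 and 62.0 CPM in WT, 32.4 and 43.3 in KO, with 74.4 and 103 in DATG (1.23, SE 0.27). SERPINH1, the collagen chaperone HSP47, stood at 32.2 and 71.8 in WT, 21.3 and 41.5 in KO, with 74.6 and 97.6 in DATG (1.45, SE 0.49). LOXL1, which cross-links collagen and elastin, stood at 29.6 and 48.5, 21.2 and 30.6, and 46.8 and 103 (1.53, SE 0.46). Both DATG libraries lay above both KO libraries for these 3 genes. In DATG vs WT 57 of the 80 were higher, with a median of 0.22 and 0 called by edgeR or DESeq2.

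COL26A1, an extracellular protein with short collagen stretches, is the chain gene closest to the targeted RNA. On GRCh38 it lies on chromosome 7 at 101362820 to 101559024 on the plus strand, and LNCPRESS1 at 101299578 to 101301346 on the same strand, 61473 bases upstream with 2 annotated genes between them in GENCODE 29. Its highest mean was in pluripotent-like nuclei, at 202 and 177 CPM in WT, 167 in KO replicate 1 and 191 in DATG replicate 2, while KO replicate 2 and DATG replicate 1 held no such nuclei. In whole teratomas COL26A1 stood at 64.5 and 31.3 CPM in WT, 59.7 and 46.8 in KO, with 57.5 and 45.9 in DATG. The groups overlapped, and the log2 fold change was 0.15 (SE 0.38, edgeR adjusted p = 0.998) for KO vs WT and 0.11 (SE 0.38, adjusted p = 0.999) for DATG vs WT.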

How the data were processed

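Single-nucleus RNA libraries of 6 teratoma samples (3 groups, 2 libraries each) were counted by the authors. The deposited values are UMI counts per gene and barcode, on a joint human and mouse reference; the submitters' processing notes name Cell Ranger 8.0.1 and the file headers 8.0.0. The sources used here do not say how strand and introns were treated. Total UMIs per library were 35785812 to 47574535.

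Barcodes with at least 500 UMIs and 300 genes were kept and called human or mouse at 90% of UMIs. Doublets (4826) were called against simulated ones at 0.8% per 1000 nuclei and removed. Human nuclei were clustered without collagen chains or mitochondrial genes (2000 variable genes, 30 principal components, 20 neighbours, leidenalg 0.10.2 at resolution 1, scikit-learn 1.9.0, Python 3.11.15). A cluster was named when at least 3 markers, and over 1 in 3 of one of 33 lists, stood 2-fold above the other nuclei at 20 CPM or more. Where another list held more of the 10 leading genes of the cluster, that list gave the name if it passed too. Otherwise the cluster stayed unnamed, so an unnamed cluster may still have met a list. By choices made after seeing their leading genes, a cluster that met the mitotic list but was led by forebrain progenitor genes, and a shallow one led by globin and heat shock genes that met the erythroid and unrelated lists, were left unnamed.

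Counts were summed per library and tested with edgeR 4.0.16 (robust quasi-likelihood, TMM, low-count filter, R 4.3.3, limma 3.58.1) on all 6 libraries, with Benjamini-Hochberg adjustment over all genes tested and a threshold of 0.05. Summed collagen was compared by exact permutation tests (scipy 1.17.1). The edgeR and DESeq2 fits were also run on counts simulated for KO vs WT, with less spread between replicates than in these data. Those runs do not show what size of change could be called here. Alternatives were DESeq2 1.42.0, other size factors, no filter, 2 groups alone, each library left out, a replicate block, doublets kept, 95% species calls, 1000 UMIs, other clusterings, the sum without its highest member and equal class shares. Gene positions are from GENCODE 29 on GRCh38.

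Named chains are those past the threshold with all 6 or with 4 libraries, and the 4 per direction with the smallest p in each comparison; within a class, 1 per direction; by class, the class with the highest mean; and chains sharing a locus or trimer with these. Pathway genes are from the 2 per role with the smallest p. The chains follow from a rule on names that uses no measured value. That rule, the lists and the other rules were set with earlier results of these data known.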

Additional observations from a re-analysis of the deposited data

Results flagged for a closer look

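UMIs counted on human collagen chains were found in nuclei called mouse, which the comparisons between groups do not use. These UMIs made up 2.03% (WT replicate 1), 4.11% (WT replicate 2), 0.899% (KO replicate 1), 2.32% (KO replicate 2), 2.89% (DATG replicate 1) and 3.32% (DATG replicate 2) of the human UMIs there, above what a count of 0 allows in each library. The values rest on 87 to 547 mouse nuclei per library, in which human UMIs were 6.29% to 7.45% of all UMIs. The source of these collagen UMIs, and the part of free RNA in the levels of collagen within human classes, were not tested.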

How the results depend on the processing

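Of the counts and sums under the alternatives, 215 were close to the reported value and 16 moved. With edgeR on all 6 libraries 0 chains were called in every comparison; for KO vs WT the 4 libraries alone gave 1 chain and 2 pathway genes, and DESeq2 gave 1 chain. Leaving out 1 library gave 0 to 2 chains and 0 to 2 pathway genes for KO vs WT, 0 to 2 chains and 0 to 3 pathway genes for DATG vs WT, and 0 to 11 chains and 0 to 25 pathway genes for DATG vs KO. Within classes it gave 0 to 2 chains (DATG vs WT) and 0 to 6 (DATG vs KO) in choroid plexus-like, 0 to 1 in hepatocyte-like and 0 to 3 in neuron-like nuclei (both DATG vs KO). All of these upper values came from leaving out a DATG library, and the cause was not tested. COL2A1 for DATG vs KO ran from -1.53 without DATG replicate 1 to 0.19 without DATG replicate 2 (-0.43 with both), and COL4A6 in hepatocyte-like nuclei for DATG vs WT from -2.25 without DATG replicate 2 to 0.0015 without DATG replicate 1 (-0.62 with both).

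The labels do not say that a replicate number marks a shared batch, so whether the numbers pair the libraries is not known. Deviations of same-numbered libraries correlated at 0.121 (WT and KO), -0.132 (WT and DATG) and 0.348 (KO and DATG). With the replicate block edgeR called 0 chains and 0 pathway genes, and the chains with an unadjusted p under 0.05 numbered 15 for KO vs WT (4 without the block), 4 for DATG vs WT (2) and 18 for DATG vs KO (12), where 6.06%, 3.03% and 6.83% of all genes had such a p.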
